A study of Mus musculus with 9 samples.

Results

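The Akr1c aldo-keto reductases were examined in the ovaries of juvenile mice. The 6 genes, Akr1c18, Akr1c19, Akr1c14, Akr1c12, Akr1c13 and Akr1cl, were taken by their symbol from the 52025 genes of the deposited tables. The genes were chosen by their family and by their FPKM on the 3 days in these same libraries, so that their levels and differences between the days are given as a description, without a test. Of the 6 genes, 5 had a mean above 1 FPKM (mapped fragments scaled by exon length and library depth) on at least 1 day and were among the 15495 genes kept for the comparison of days, and Akr1c12 was not.

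RNA was sequenced from ovaries of Kunming mice on postnatal day (PD) 14, PD15 and PD16, with 3 libraries for each day, to follow the ovary while the first follicular antra form. Kunming is an outbred stock, and the labels name no treatment. The labels give the tissue as ovary but the source as granulosa cells, and do not say how many animals stand behind a library. Markers fixed for granulosa cells, theca and interstitial cells, oocytes, stroma, smooth muscle and endothelium were all above 1 FPKM in at least 1 library, so that the libraries held more than granulosa cells. The oocyte markers alone summed to between 1076 and 1546 FPKM. Cyp11b2, which defines the outer zone of the adrenal cortex, was listed at 0 in every library. Of the 8 adrenal cortex markers 5 stayed below 1 FPKM in every library, as did 7 of 8 fat markers and 6 of 8 oviduct markers. The highest adrenal marker was Mrap, at 3.59 to 6.30 FPKM. The libraries held 20.4 M to 28.7 M mapped fragments.

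Enzymes of this family are soluble reductases that use NADPH or NADH to turn a ketone or aldehyde group into an alcohol, and many of them act on steroids. Akr1c18 reduces progesterone to a hydroxylated product with little progestogenic activity, and it is best known for its induction in the corpus luteum when progesterone support ends. Akr1c14 is a hydroxysteroid dehydrogenase that acts on androgens and on reduced metabolites of progesterone, whereas Akr1c12, Akr1c13 and Akr1c19 are close relatives with broader or less defined substrates.

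In the GRCm38 assembly, 5 of the 6 genes lay in a cluster on chromosome 13, in the GENCODE M21 annotation. From one end of it, Akr1c14 occupied chr13:4049011-4090688 on the plus strand, Akr1c18 chr13:4132615-4150654 on the minus strand and Akr1c13 chr13:4191150-4205596 on the plus strand. Akr1c19 followed at chr13:4228700-4252843 on the plus strand and Akr1c12 at chr13:4268176-4279433 on the minus strand. Akr1cl was apart from them, at chr1:65012689-65032759 on the minus strand.

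All 6 genes had a promoter in the RefSeq table for GRCm38.p6, covering 250 bases before and 50 bases after the start site. The windows of Akr1c19 (from base 4233490) and Akr1c14 (from base 4059341) lay well inside the M21 genes, which begin at 4228700 and 4049011. The M21 starts of these 2 genes were not searched. Akr1c18 and Akr1c19 are shown since both were highest at PD15, and Akr1c13 and Akr1c12 since they are the most alike in sequence. Capitals mark matches to any of 5 motifs searched on both strands.
Akr1c18, chr13:4150597-4150896, minus strand: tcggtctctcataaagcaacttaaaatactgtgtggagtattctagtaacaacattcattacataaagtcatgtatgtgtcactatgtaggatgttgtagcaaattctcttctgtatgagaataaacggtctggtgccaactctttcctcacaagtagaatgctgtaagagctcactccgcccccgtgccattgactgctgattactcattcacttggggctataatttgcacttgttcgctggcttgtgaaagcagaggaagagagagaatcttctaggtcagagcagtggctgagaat
Akr1c19, chr13:4233490-4233789, plus strand: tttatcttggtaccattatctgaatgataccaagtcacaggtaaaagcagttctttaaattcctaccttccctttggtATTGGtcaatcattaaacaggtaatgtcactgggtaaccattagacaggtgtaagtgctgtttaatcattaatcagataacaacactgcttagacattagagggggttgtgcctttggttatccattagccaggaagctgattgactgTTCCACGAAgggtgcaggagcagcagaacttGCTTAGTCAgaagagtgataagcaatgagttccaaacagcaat
Akr1c13, chr13:4190937-4191236, plus strand: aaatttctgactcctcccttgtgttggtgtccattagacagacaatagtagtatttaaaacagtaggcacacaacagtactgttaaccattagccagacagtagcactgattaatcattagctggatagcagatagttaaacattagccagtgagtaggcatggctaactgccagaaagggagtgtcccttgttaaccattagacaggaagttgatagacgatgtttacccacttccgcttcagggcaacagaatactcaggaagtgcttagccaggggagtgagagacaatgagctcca
Akr1c12, chr13:4279350-4279649, minus strand: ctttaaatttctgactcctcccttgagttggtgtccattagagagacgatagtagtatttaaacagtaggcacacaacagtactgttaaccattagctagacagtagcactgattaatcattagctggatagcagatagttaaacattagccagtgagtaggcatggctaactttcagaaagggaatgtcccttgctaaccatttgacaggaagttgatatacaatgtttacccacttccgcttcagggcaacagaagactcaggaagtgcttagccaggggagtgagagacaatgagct

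The motifs were TGACNNNGC (the antioxidant response element bound by NRF2), TTCNNNGAA (the STAT5 element), AAGGTCA (the element of NR5A and NR4A receptors), TATAAA and CCAAT. In Akr1c19, TTCCACGAA matched the STAT5 element from base -24 to base -16, with the first transcribed base as 0. GCTTAGTCA matched the antioxidant response element on the other strand from base 7 to base 15, and ATTGG matched CCAAT on the other strand. None of these 3 matches overlapped another. Akr1cl held 1 antioxidant response element and 3 CCAAT matches, and Akr1c14 1 CCAAT match. None of the 5 motifs was found in Akr1c18, Akr1c12 or Akr1c13, which says only that these letters are not in those windows. Among all 32851 promoters of the same length, 12.4% held the antioxidant response element, 8.3% the STAT5 element, 4.72% AAGGTCA, 13.6% TATAAA and 37.4% CCAAT.

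The promoters of Akr1c12 and Akr1c13 were identical over 93.4% of aligned positions. That of Akr1c19 shared 56.7% with Akr1c12 and 58.8% with Akr1c13, and every other pair shared 45.4% to 52.2%. The same pair stood out in the open reading frames, which were 972 bases long in 5 genes and 969 in Akr1cl. Akr1c12 and Akr1c13 were identical over 96.2% of this sequence, against 73.1% to 77.9% for the other 14 pairs. Of the 923 stretches of 50 bases in the Akr1c13 frame, 342 (37.1%) were found unchanged in Akr1c12. The values of these 2 genes are therefore uncertain, since fragments of either could be assigned to the other. Akr1c18 shared 7 of its 923 stretches with Akr1cl, and no other members shared any.

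Akr1c18, the progesterone-reducing member, was high at PD15 and low at PD16. Its level was 10.5, 4.73 and 8.95 FPKM in the PD14 libraries, 17.9, 19.7 and 23.2 FPKM in the PD15 libraries, and 1.95, 2.55 and 1.89 FPKM in the PD16 libraries. Every PD15 library was above every PD14 library, and every PD16 library was below both, so that no pair of days overlapped. The mean was 8.08 ± 3.00 FPKM at PD14, 20.3 ± 2.73 at PD15 and 2.13 ± 0.369 at PD16 (SD, n = 3). The PD15 mean was 2.51-fold the PD14 mean and 9.51-fold the PD16 mean. These levels rested on 56 to 806 fragments per library.

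On the scale of log2(FPKM + 1), the Akr1c18 difference was 1.28 (SE 0.23) from PD14 to PD15, -1.48 from PD14 to PD16 and -2.76 from PD15 to PD16. Among the 15495 genes, 14 had a larger difference upward from PD14 to PD15. From PD15 to PD16 no other gene had a larger difference downward, and from PD14 to PD16 9 genes did.

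Akr1c19, an enzyme that uses NAD and whose gene lies in the same cluster, was likewise highest at PD15. Its level was 1.67, 1.72 and 1.59 FPKM at PD14, 5.90, 6.46 and 9.03 FPKM at PD15, and 1.53, 1.30 and 1.52 FPKM at PD16. The PD15 libraries stood well above the others, whereas the highest PD16 library lay only slightly below the lowest PD14 library. The mean was 1.66 ± 0.0677 FPKM at PD14, 7.13 ± 1.67 at PD15 and 1.45 ± 0.131 at PD16 (SD, n = 3). The PD15 mean was 4.29-fold the PD14 mean and 4.92-fold the PD16 mean. The fragments behind it numbered 51 to 449 per library.

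The log2 difference of Akr1c19 was 1.59 (SE 0.13) from PD14 to PD15, -0.12 from PD14 to PD16 and -1.71 from PD15 to PD16. Upward from PD14 to PD15 7 genes had a larger difference, and downward from PD15 to PD16 6 genes did. The size of these values depends on the constant added before the logarithm, since the gene is low. With 0.1 in place of 1 the difference from PD14 to PD15 was 2.01, and with 5 it was 0.86.

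**Figure D1:**
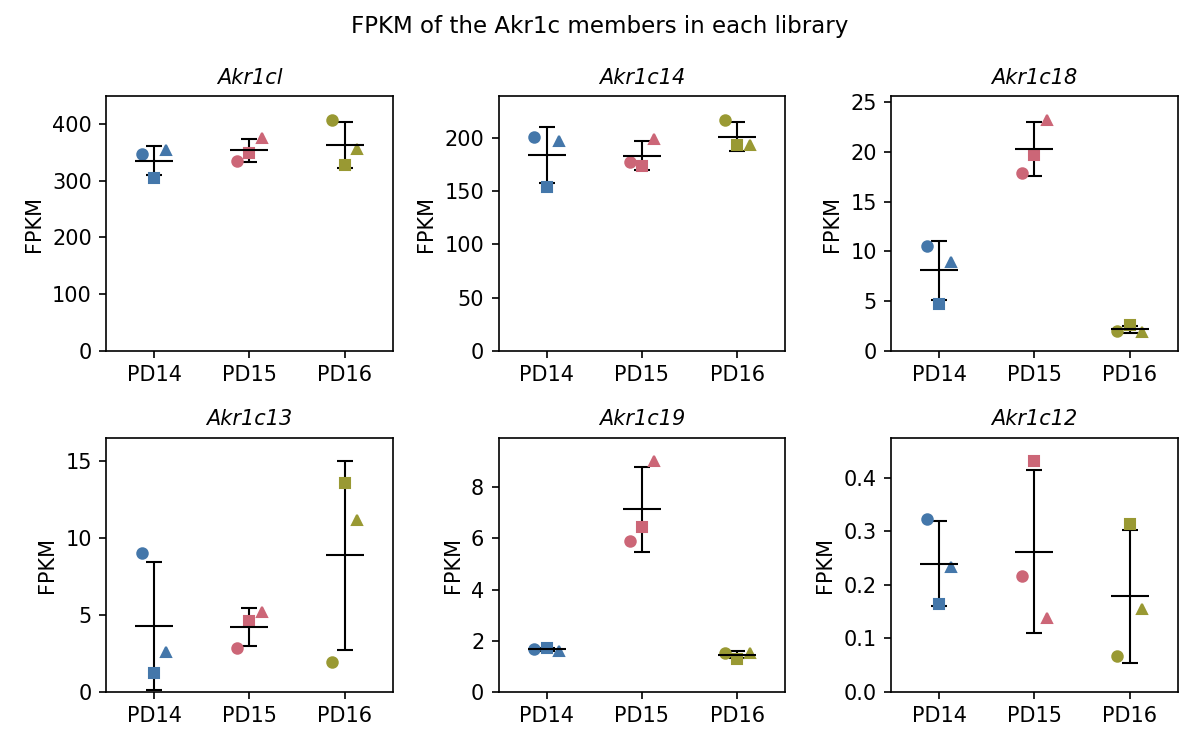
Level of the 6 genes in FPKM (vertical axes, linear, from 0) by day (horizontal axes), with circles, squares and triangles for replicates 1, 2 and 3, a horizontal line for the mean and bars for the SD (n = 3). Akr1c18 and Akr1c19 are highest in the 3 PD15 libraries, the other 4 genes overlap between the days, and the axes differ between panels.

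Akr1c18 and Akr1c19 did not keep a fixed proportion. The level of Akr1c18 per length was 2.75 to 6.30 times that of Akr1c19 at PD14, 2.57 to 3.05 times at PD15 and 1.24 to 1.97 times at PD16. Over the 9 libraries, Pearson's r of their log2(FPKM + 1) was 0.84, as a description over libraries that fall into 3 days.

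Akr1c14, the hydroxysteroid dehydrogenase, was abundant on every day. Its level was 201, 154 and 197 FPKM at PD14, 178, 174 and 199 FPKM at PD15, and 217, 193 and 193 FPKM at PD16. The days overlapped, and the log2 differences were 0.00, 0.14 and 0.13 (SE 0.11) from PD14 to PD15, PD14 to PD16 and PD15 to PD16. With 11028 to 17009 fragments per library, counting error was small.

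Akr1cl, which is named for its likeness to the family, was the most abundant member. Its level was 348, 306 and 354 FPKM at PD14, 336, 350 and 376 FPKM at PD15, and 408, 328 and 356 FPKM at PD16. These values overlapped between the days as well, with log2 differences of 0.08, 0.11 and 0.04 (SE 0.11) in the same order. By mean level Akr1cl was 87th and Akr1c14 202nd of the 52025 genes. Akr1cl was 1.70 to 2.01 times as abundant per length as Akr1c14 in every library, and r between them was 0.83. In GENCODE M21, 494 exon bases of Akr1cl are also covered by Gm8550 on the opposite strand, which was at 10.9 to 24.3 FPKM. Whether strand was used in counting is not given in the sources used here, so that reads of this stretch cannot be told apart.

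Akr1c13, a broad reductase, varied most within a day. Its level was 9.01, 1.24 and 2.56 FPKM at PD14, 2.83, 4.59 and 5.20 FPKM at PD15, and 1.92, 13.5 and 11.1 FPKM at PD16. PD14 and PD16 each held libraries both below and above the whole PD15 range. The highest library was 10.9-fold the lowest, with 42 to 430 fragments per library, and the log2 differences of 0.24, 0.90 and 0.65 had a standard error of 0.65. The sign of its PD15 against PD14 difference rested on single libraries, being 0.85 without PD14 replicate 1 and -0.23 without PD14 replicate 2. Without PD16 replicate 1 the PD16 difference was 1.62 against PD14 and 1.38 against PD15 (SE 0.52 for both). Over all libraries left out, these 2 differences ranged from 0.42 to 1.62 and from 0.22 to 1.38, being lowest without PD14 replicate 2 and without PD16 replicate 2.

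Akr1c12, the near copy of Akr1c13, was close to the limit of detection. It ranged from 0.0664 to 0.432 FPKM, which came from 2 to 13 fragments per library and 62 in all. The days overlapped, and no difference could be resolved at this depth.

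In the M21 models, which for these 2 genes were not those behind the FPKM, Akr1c19 shared 291 exon bases with the pseudogene Marcksl1-ps4 on its own strand, which was at 0.140 to 1.14 FPKM, and Akr1c14 shared 234 with Gm18857, at no more than 0.140 FPKM.

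The 6 genes together reached 467 to 631 FPKM per library. Akr1cl made up 60.9% to 65.5% of this sum and Akr1c14 31.3% to 35.8%. Akr1c18 and Akr1c19 together accounted for 1.38% to 2.14% at PD14, 4.40% to 5.27% at PD15 and 0.551% to 0.715% at PD16. Thus the members that differed most between the days were a small part of the family transcript.

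By level per length, Akr1cl and Akr1c14 were first and second on every day and did not overlap with each other or with the rest. At PD15 the order went on with Akr1c18, Akr1c19, Akr1c13 and Akr1c12, and no neighbours overlapped. At PD14 Akr1c18 overlapped with Akr1c13, and Akr1c13 with Akr1c19. At PD16 the mean of Akr1c13 was above that of Akr1c18, though the libraries of these 2 overlapped, and Akr1c18 stayed above Akr1c19.

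In limma with Benjamini-Hochberg adjustment over all genes, 2 of the 5 members (Akr1c18 and Akr1c19) were past an adjusted p of 0.05 as higher at PD15 than at PD14, where 0.336% of all genes were. At PD16 against PD14, 1 member (Akr1c18) was past it as lower, where 1.89% of all genes were. At PD16 against PD15, 2 members (Akr1c18 and Akr1c19) were past it as lower, where 0.297% of all genes were. The members were chosen with these contrasts known, and nothing is read from these counts.

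The 2 genes also did not overlap between any 2 days. Over all genes the libraries did not overlap, with PD15 higher than PD14, for 10.4%. PD16 was lower than PD14 without overlap for 13.5%, and lower than PD15 for 9.73%.

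**Figure D2:**
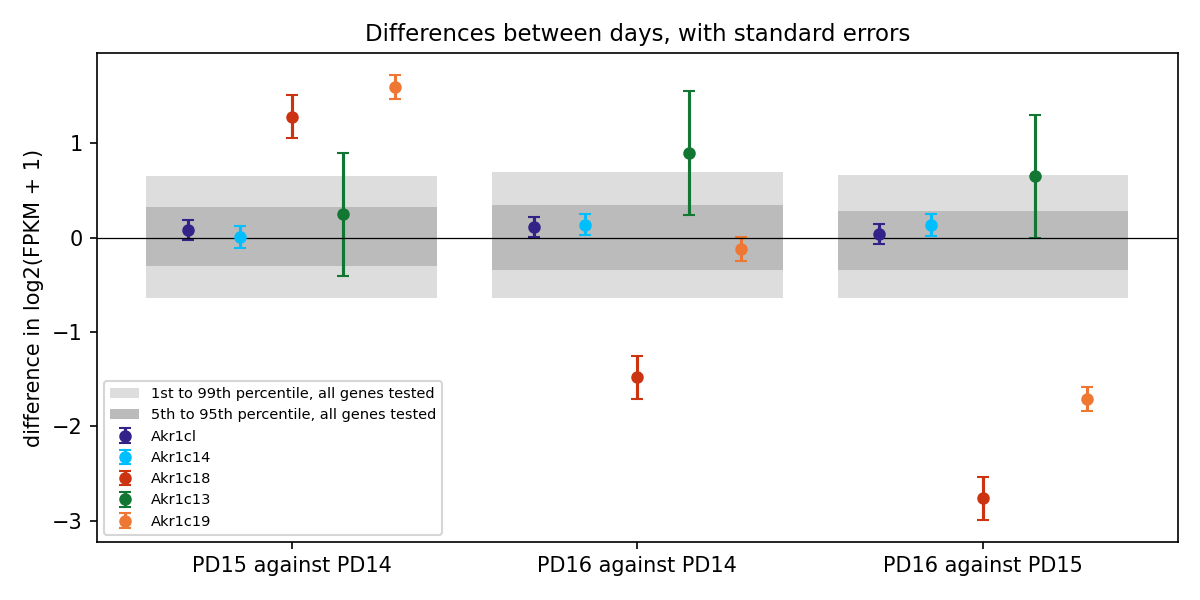
Difference in log2(FPKM + 1) between days (vertical axis) for the 5 members kept for the comparison, as points with standard errors, in each of 3 comparisons (horizontal axis). Grey bands give the 5th to 95th and 1st to 99th percentiles of all 15495 genes. Akr1c18 and Akr1c19 lie outside both bands at PD15 against PD14 and at PD16 against PD15. At PD16 against PD14, Akr1c18 and Akr1c13 do.

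The genes with the pattern most like Akr1c18 over the 9 libraries, among 9378 genes with a mean above 5 FPKM, were Rln3, Zp2, Gdpd1, Khdc1a, Dppa5a and Zp3. Their r was 0.966, 0.965, 0.958, 0.953, 0.953 and 0.953. Zp2 and Zp3, which encode proteins of the egg coat, were also on the list of oocyte markers. For Akr1cl the 6 genes were Jrkl, Mrpl32, Fbxo3, Mpp5, Rpl10a and Mrpl30, with r from 0.925 down to 0.899. Of these, Mrpl32, Rpl10a and Mrpl30 encode ribosomal proteins of the mitochondrion or the cytosol. All of these r are descriptions over 9 libraries in 3 days, which share their depth and their mix of cells.

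The summed oocyte markers had the same order of days as Akr1c18, highest at PD15 and lowest at PD16. The list of 10 (Gdf9, Bmp15, Zp1, Zp2, Zp3, Ooep, Figla, Nobox, Oosp1 and Dppa3) was detected in full, and none of its defining members was at 0. Its summed level was 1127 to 1417 FPKM at PD14, 1429 to 1546 at PD15 and 1076 to 1132 at PD16. PD14 replicate 2, the library with the least Akr1c18 of its day, also had the least oocyte sum of its day. This did not hold on the other days. PD16 replicate 3 had the least Akr1c18 of its day but the highest oocyte sum. At PD15 the least Akr1c18 was in replicate 1 and the least oocyte sum in replicate 2. Of the 10 markers, 6 had this order of day means and 4 did not. Bmp15 and Oosp1 had a higher mean at PD16 than at PD14, and Figla and Nobox had their highest mean at PD14. In bulk ovaries, fewer cells of a type and less RNA per cell cannot be told apart.

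Single oocyte markers differed less between the days than Akr1c18 did. At PD15 against PD14 none of the 10 passed the limma test at an adjusted p under 0.05, 3 were higher at an unadjusted p under 0.05, beside 1118 of all genes, and their median difference was 0.20 against 0.01 over all genes. At PD16 against PD15 Zp2 fell by 0.61 on the log2 scale (SE 0.10, limma adjusted p = 0.0427), from 268 ± 21.1 to 176 ± 8.20 FPKM (SD, n = 3). This call was lost when any library other than PD14 replicate 2 was left out, with an adjusted p of up to 0.133. The median difference of the list in that comparison was -0.36, and 8 of 10 markers were lower at an unadjusted p under 0.05, beside 0.01 and 1138 of 15495 over all genes. At PD16 against PD14 the median difference of the list was -0.25, with 5 of 10 markers lower and 1 higher at an unadjusted p under 0.05, beside 1698 and 1833 of all genes. In that comparison Bmp15, a growth factor of the oocyte, rose by 0.39 (SE 0.08, limma adjusted p = 0.0331), though not with the replicate number as a block (adjusted p = 0.0749). That call was lost when any PD14 library, PD15 replicate 2, PD16 replicate 1 or PD16 replicate 2 was left out, with an adjusted p of up to 0.113.

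Per 1000 FPKM of oocyte markers, Akr1c18 was at 4.20 to 7.81 at PD14, 12.0 to 15.0 at PD15 and 1.67 to 2.34 at PD16. For Akr1c19 the same ratio was 1.12 to 1.53 at PD14, 3.98 to 5.84 at PD15 and 1.19 to 1.42 at PD16. For both genes the PD15 ratios lay above those of the other days without overlap, and for Akr1c18 the PD16 ratios lay below those of PD14. For Akr1c19 the ratios of PD14 and PD16 overlapped, although its FPKM on these days did not. The 8 summed markers of macrophages and blood were 121 to 149 FPKM at PD14, 67.9 to 88.0 at PD15 and 85.9 to 134 at PD16. Most of this sum was the globin transcripts Hba-a1, with day means of 87.4, 33.7 and 62.1 FPKM, and Hbb-bs, with 29.9, 15.3 and 21.7 FPKM. Both globins were lowest at PD15, where Akr1c18 was highest. They were highest at PD14, whereas Akr1c18 was lowest at PD16. The macrophage markers differed from the globins and among themselves. Day means were 8.91, 14.0 and 15.8 FPKM for Lyz2, 0.811, 0.935 and 1.18 for Adgre1, and 6.43, 7.21 and 7.38 for C1qa, which share the order of days, but 2.03, 1.70 and 1.96 for Csf1r and 2.22, 2.16 and 1.99 for Cd68. Lyz2 rose from PD14 to PD16 (limma adjusted p = 0.0286, up to 0.0993 with 1 library left out).

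Other marker lists differed in part at PD16, when Akr1c18 was lowest, and not all in 1 direction. Plin1, the 1 fat marker tested, fell from PD14 by 0.60 at PD15 (limma adjusted p = 0.0377) and by 0.50 at PD16 (adjusted p = 0.0294). With 1 library left out it passed in 2 and 4 of 9 fits, and with the replicate number as a block only at PD16 (adjusted p = 0.0468). Of the surface epithelium markers, whose sum was 55.6 to 64.8 FPKM at PD14, no more than 57.8 at PD15 and 44.0 to 48.5 at PD16, 3 of 6 tested fell from PD14 to PD16, namely the keratins Krt8 (limma adjusted p = 0.0222), Krt18 (adjusted p = 0.0121) and Krt19 (adjusted p = 0.0335). Krt18 passed without each library in turn other than PD16 replicate 1, Krt8 in 6 of 9 such fits and Krt19 in 3. The other 3 tested, Upk3b, Upk1b and Msln, differed by 0.05, 0.09 and 0.11 from PD14 to PD16 and did not pass. Of the 10 granulosa markers, whose sum overlapped between the days at 2919 to 3706 FPKM, 1 (Amh) rose and 2 (Cyp19a1 and Kctd14) fell from PD14 to PD16, by limma adjusted p of 0.0223, 0.0316 and 0.0487, and each of these was lost when some libraries were left out. Of the 8 smooth muscle markers, 2 rose from PD14 to PD16 and none fell, beside 366 and 293 of all genes. Cnn1 rose by 0.61 (limma adjusted p = 0.0348) and Myocd by 0.74 (adjusted p = 0.0235). With 1 library left out they passed in 3 and 5 of 9 fits. With the replicate number as a block Cnn1 did not pass (adjusted p = 0.0809). The endothelial sum was 95.3 to 110 FPKM at PD14, 86.0 to 94.4 at PD15 and 82.7 to 90.7 at PD16. No endothelial marker passed. At PD15 against PD14 the median difference was -0.27 for the 10 theca and interstitial markers and -0.46 for the 7 luteal markers tested. At a limma unadjusted p under 0.05, none of either list was higher and 2 and 3 were lower, beside 1118 and 1163 of all genes. At PD16 against PD15 the medians were 0.10 and 0.11, and at PD16 against PD14 0.02 and -0.42. No marker of either list passed an adjusted p of 0.05. The part of these cell types in the Akr1c18 and Akr1c19 levels was not tested.

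**Figure D3:**
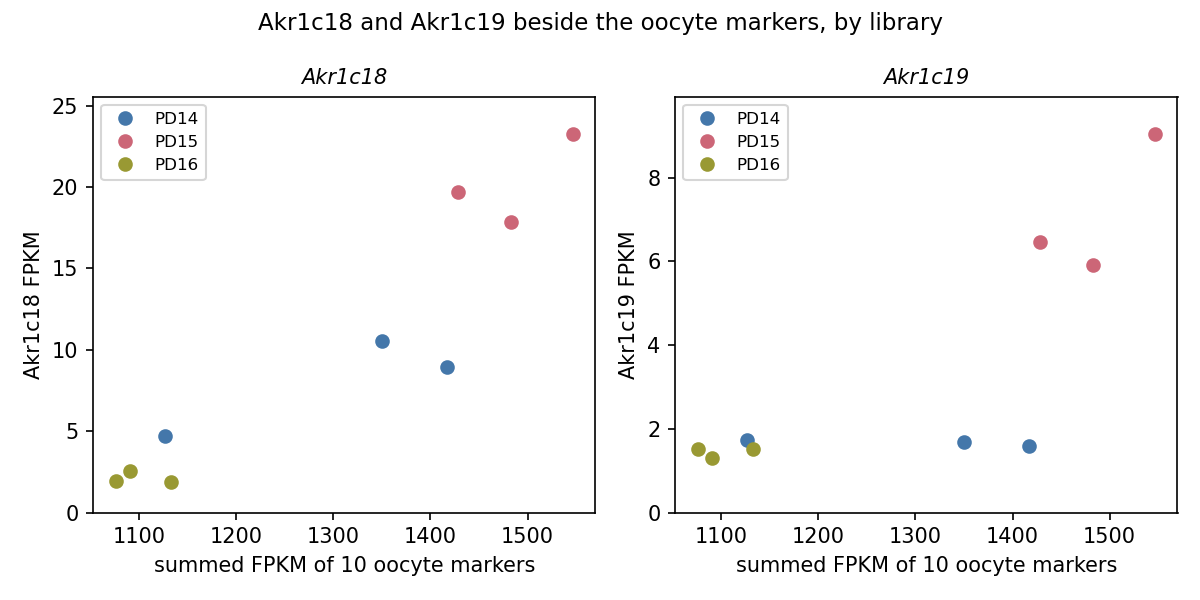
FPKM of Akr1c18 (left) and Akr1c19 (right) on the vertical axis against the summed FPKM of 10 oocyte markers on the horizontal axis, which does not start at 0, with 1 point per library coloured by day. The PD15 libraries have the highest values of both, and the PD14 libraries span 1127 to 1417 on the horizontal axis while Akr1c19 stays between 1.59 and 1.72 FPKM.

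Related genes were taken from 8 lists with 83 genes, of which 81 were found in the tables and 63 were tested. The lists cover the synthesis, reduction and inactivation of steroids, progesterone receptors, regulators of Akr1c18, NRF2 and its targets, and other aldo-keto reductases. They hold none of the 6 members. At PD15 against PD14, when Akr1c18 was highest, none of the 63 rose and 1 fell, and their median difference was -0.05, against 0.01 over all genes, of which 52 rose and 53 fell. At an unadjusted p under 0.05, 7 were higher and 13 lower, beside 1118 and 1163 of all 15495 genes. At PD16 against PD14, 3 rose and 3 fell, beside 366 and 293 of all genes, with a median of -0.02, and 9 were higher and 20 lower at an unadjusted p under 0.05, beside 1833 and 1698 of all genes. At PD16 against PD15 none rose and 1 fell, beside 67 and 46 of all genes, with a median of 0.00, and 6 were higher and 4 lower at an unadjusted p under 0.05, beside 1051 and 1138 of all genes.

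Among 10 genes of progesterone synthesis, 9 were tested. Hsd3b1, which makes progesterone from pregnenolone, had the highest level, at 1062 to 2091 FPKM. Cyp11a1, which makes pregnenolone from cholesterol, was at 46.8 ± 4.99 FPKM at PD14 and 25.2 ± 8.25 at PD15 (SD, n = 3), with a log2 difference of -0.91 (limma adjusted p = 0.243). Star, which carries cholesterol into the mitochondrion, ranged from 3.44 to 8.18 FPKM over the 9 libraries. The only call on this list was Fdxr, which supplies electrons to Cyp11a1. It fell by 0.30 from PD14 to PD16 (SE 0.07, limma adjusted p = 0.0411), from 45.3 ± 0.898 to 36.7 ± 1.09 FPKM.

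Among the 7 genes tested for androgen and estrogen synthesis, Cyp19a1, the aromatase, fell from PD14 to PD16 and the other 6 did not pass. It was at 6.61, 3.77 and 4.95 FPKM at PD14 and at 2.54, 2.69 and 1.89 FPKM at PD16. The 2 days did not overlap, and the difference was -0.84 (SE 0.17, limma adjusted p = 0.0316). In the study's qRT-PCR, Cyp19a1 and Cyp11a1 were instead reported as higher at PD15 and PD16. Of 11 genes tested for other steroid reduction and inactivation, Hsd11b2, which inactivates glucocorticoids, rose from PD14 to PD16. It was at 26.6, 26.8 and 21.9 FPKM at PD14 and at 39.1, 35.7 and 42.6 FPKM at PD16, a difference of 0.62 (SE 0.12, limma adjusted p = 0.0262). The steroid reductase Srd5a1, at 5.78 to 10.1 FPKM, passed in no comparison.

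**Figure D4:**
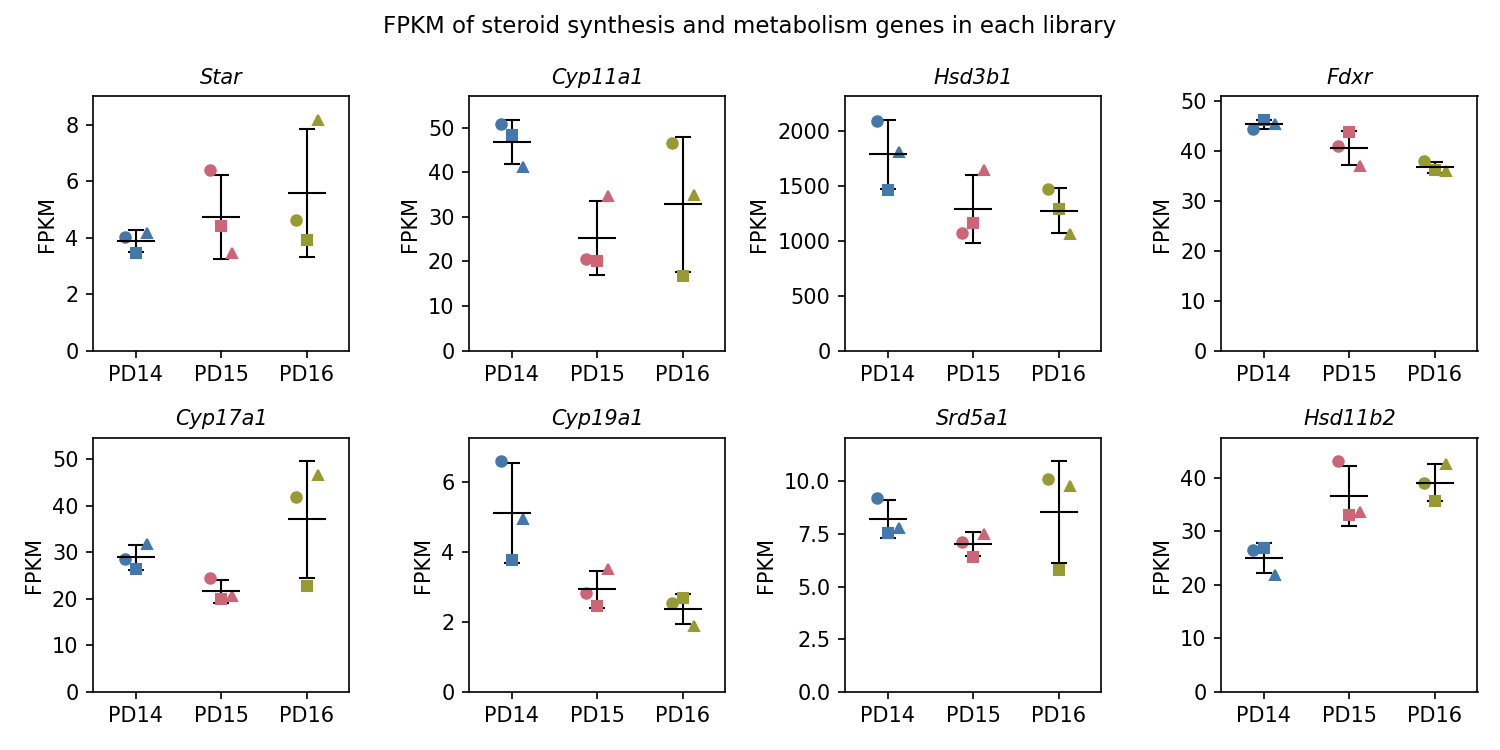
FPKM (vertical axes, linear, from 0) by day of 8 genes of steroid synthesis and inactivation, with symbols for replicates 1, 2 and 3 as circles, squares and triangles, a line for the mean and bars for the SD (n = 3). Fdxr and Cyp19a1 fell and Hsd11b2 rose from PD14 to PD16, and the other 5 genes passed no test.

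None of the 5 tested progesterone receptors passed in any comparison. Nor did any of 10 tested genes known to act on Akr1c18. Of these, the prolactin receptor Prlr was at 2.59 to 5.82 FPKM, and its difference from PD14 was -0.47 one day later (limma adjusted p = 0.174) and -0.42 the day after that (adjusted p = 0.127). Stat5a, which acts downstream of prolactin, was at 3.12 to 6.37 FPKM and its difference was 0.47 at either age, with an adjusted p of 0.116 and then 0.0537.

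Of 12 genes for NRF2 and its targets, Nqo1, a quinone reductase, fell between PD14 and PD16. Its level was 4.02, 4.08 and 4.20 FPKM at PD14, 3.57, 3.98 and 3.59 FPKM at PD15, and 2.35, 2.72 and 2.63 FPKM at PD16. The difference was -0.52 (SE 0.07, limma adjusted p = 0.0103) against PD14 and -0.40 (adjusted p = 0.0438) against PD15. Both subunits of the enzyme that starts glutathione synthesis rose from PD14 to PD16, Gclc by 0.47 (adjusted p = 0.0294) and Gclm by 0.24 (adjusted p = 0.0394).

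Of the remaining family genes, Akr1c21 was at 0.878 to 2.77 FPKM, and Akr1c6 and Akr1c20 gave 2 and 11 fragments in all 9 libraries. Neither tested gene of this list, Akr1c21 or Akr1e1, passed in any comparison. Of 7 tested aldo-keto reductases outside the family, Akr1b10 fell by 0.42 from PD14 to PD15 (SE 0.07, limma adjusted p = 0.0397), from 7.03 ± 0.494 to 4.99 ± 0.323 FPKM, and was at 6.32 ± 0.394 FPKM at PD16. It was thus lower on the day when Akr1c18 and Akr1c19 were higher.

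These calls on single genes depended on single libraries, except for Nqo1 against PD14, which held without each of the 9 libraries in turn (adjusted p of 0.0161 to 0.0423) and with the replicate number as a block. Akr1b10 (0.0506 to 0.141) and Nqo1 against PD15 (0.0526 to 0.133) passed in none of the 9 fits, Gclm in 1 (without PD15 replicate 3), Fdxr in 2 (without PD15 replicate 2 or 3), Gclc in 3 (without any PD15 library), Cyp19a1 in 4 (without PD14 replicate 2 or any PD15 library) and Hsd11b2 in 5 (without PD14 replicate 2, PD16 replicate 2 or any PD15 library), with adjusted p of up to 0.12 for the last 5. With the block, the adjusted p was 0.0556 for Akr1b10, 0.0769 for Fdxr, 0.0626 for Cyp19a1, 0.0511 for Hsd11b2, 0.0661 for Gclc, 0.0919 for Gclm and 0.0779 for Nqo1 against PD15.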

How the data were processed

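RNA of ovaries was sequenced in 9 libraries, 3 for each of PD14, PD15 and PD16. The authors deposited FPKM for each gene in 1 table per library, normalized to exon length and to the number of mapped fragments. The submitters' processing notes name HISAT2 2.0.5 and the mm10 build. The counting tool and the annotation are not given in the sources used here. The length that the FPKM imply differed from the GENCODE M21 exons for Akr1c19 (1730 against 5892 bases), Akr1c14 (2973 against 3239), Akr1c13 (1400 against 1434) and Akr1c12 (1265 against 1261), so that the models of these genes behind the FPKM were not those of M21. It was the same for Akr1c18 and Akr1cl. Fragments were recovered from the steps between low FPKM of 399 genes, with a tolerance of 0.01. They gave the depth and the fragments behind each member and entered no test. No 2 tables held the same values.

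The comparison of days was made on log2(FPKM + 1), so that a difference understates the change of low genes. Genes with a mean above 1 FPKM on at least 1 day (15495) were compared in limma with all 9 libraries in 1 model, an intensity trend and Benjamini-Hochberg adjustment. On simulated data of 15495 genes for PD15 against PD14, 56.5%, 91% and 98.5% of 200 changed genes were recovered at log2 changes of 0.5, 1 and 2. The simulated noise was independent between genes, so that these shares leave out differences that a library shares over many genes. The study describes the replicates as independent ovaries. Whether each came from a different animal is not given in the sources used here, and the p-values measure the spread between these libraries.

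The members and gene lists were chosen with earlier results of these data known. The rule named all 6 members, every gene of the 8 lists of related genes that was called (not of the cell type marker lists), list genes needed to describe a list, and the 6 genes with the highest Pearson r to Akr1c18 and to Akr1cl (the highest mean among the other members). Prlr, Stat5a, Srd5a1, Cyp11a1, Star and the single marker genes were named after their values were seen. Promoters were taken from RefSeq for GRCm38.p6, the assembly of mm10. A comparison of proteins had been planned, but protein sequences were not used here, and the longest open reading frames of the M21 transcripts were aligned instead. The alternatives were other pseudocounts (0.1 and 5), no filter, a filter of 5 FPKM, median-ratio and TPM scaling, no trend, only the 2 days compared, a replicate block and each library left out. The models were run in limma 3.58.1 under R 4.3.3, alignments with Biopython 1.88, and tables and plots with pandas 2.3.3, NumPy 2.4.6 and Matplotlib 3.10.9 under Python 3.11.15.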

Additional observations from a re-analysis of the deposited data

How the results depend on the processing

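Akr1c18 and Akr1c19 kept their direction in all 18 alternatives of each comparison. For Akr1c18 the difference ranged over the libraries left out from 0.98 to 1.49 at PD15 against PD14, from -1.78 to -1.28 at PD16 against PD14 and from -2.86 to -2.66 at PD16 against PD15. For Akr1c19 these ranges were 1.43 to 1.70, -0.14 to -0.08 and -1.82 to -1.55. With a pseudocount of 0.1, Akr1c18 differed by -3.20 at PD16 against PD15, and Akr1c19 by 2.01, -0.19 and -2.20 in the 3 comparisons. With a pseudocount of 5, Akr1c18 differed by -0.85 at PD16 against PD14 and -1.82 at PD16 against PD15, and Akr1c19 by 0.86, -0.047 and -0.90. With TPM scaling, Akr1c18 differed by -3.08 at PD16 against PD15, and Akr1c19 by 1.87, -0.19 and -2.06. This scaling also raised every value while the pseudocount and the filter stayed at 1, so its own effect cannot be told apart from theirs. The members with overlapping days had differences of either sign in some comparisons, depending on the library left out, as for Akr1c14 at PD15 against PD14 (-0.12 to 0.07) and Akr1cl at PD16 against PD15 (-0.05 to 0.11).

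The number of genes called was much less stable. It was 105 at PD15 against PD14, 659 at PD16 against PD14 and 113 at PD16 against PD15. Without a filter these became 29, 172 and 24. With a filter of 5 FPKM 105 became 63, and with only the 2 days compared the counts against PD14 were 47 and 320. With TPM scaling the counts at PD16 were 281 against PD14 and 70 against PD15. Under this scaling 19729 genes passed the filter instead of 15495, so that the scaling and the genes tested changed together. Over the libraries left out, the ranges were 3 (without PD15 replicate 1) to 92, 92 (without PD16 replicate 1) to 660, and 14 (without PD15 replicate 1) to 125. The cause was not tested. Of the pathway genes, 1, 6 and 1 were called in the 3 comparisons. Without a filter 0, 1 and 0 were called, and with TPM scaling 0, 2 and 0. With only the 2 days compared, 0 were called at PD15 against PD14 and 0 at PD16 against PD15. With a filter of 5 FPKM 0 were called at PD16 against PD15. That 0 was fixed by the filter, since Nqo1, the gene called there, had a highest day mean of 4.10 FPKM and was not tested. Over the libraries left out the ranges were 0 to 0, 1 to 6 and 0 to 1.

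With the replicate number as a block, 24, 227 and 56 genes and 0, 1 and 0 pathway genes were called. The deviations of libraries with the same number correlated from -0.21 to 0.16, and 2 of 9 libraries had their highest correlation with a library of their own number, but none did so on both other days. The numbers were therefore not taken to pair the libraries.

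Depth limits Akr1c12 (2 to 13 fragments per library), and the spread between libraries limits Akr1c13.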

Other observations

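Likeness over the 9 libraries was also computed for the other members, by a choice made after the values were seen and with no test. The genes most like Akr1c19 were Gm5065 (r = 0.960), Gm6768 (r = 0.944) and Rnf168 (r = 0.932), followed by Nlrp5 (r = 0.918), whose product belongs to a maternal protein complex of the oocyte. Nlrp5 was at a mean of 90.8 FPKM at PD14, 153 at PD15 and 92.5 at PD16, so that it was highest on the same day as Akr1c19. None of the 6 genes most like Akr1c18 was among the 6 most like Akr1c19. Akr1c14 was most like Gabarapl2 (r = 0.962), which acts in autophagy, and Akr1c13 reached no more than r = 0.888, with B3galt6.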
